A study of Mus musculus with 2 samples.

Results

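Of the 1436 Visium spots under tissue in the section of the Loaded femur, 1431 held at least 500 unique molecular identifiers (UMIs, each 1 captured molecule) and 250 genes, and 10.2% of these formed the bone region at the fracture site, 114 spots along its border and 32 spots inside it. The members were the barcodes that the study lists as bone between the 2 middle pins of the external fixator, a choice made on histology and position and not on counts. The other 1285 spots were the rest of the same section, which can hold muscle, marrow, fibrous tissue and bone outside the listed area. Both sections of the series together held 3329 spots that passed the filter. The question was which genes set the bone region apart from its surroundings.

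The tissue came from 1 female bone cell reporter (BCR) mouse, a line in which osteoblasts (*Ibsp*) and osteoclasts (*Acp5*) were labelled with fluorescent proteins by genome editing, so that both measured genes are also the reporter targets. All mice received a femoral osteotomy at 12 weeks of age, and those bridged at week 3 after surgery were assigned to sham-loading (Control) or to cyclic mechanical loading 3 times per week (Loaded) from week 3 to week 5. The femurs were taken at 17 weeks of age, and each group gave 1 femur and 1 section. Every value below describes 1 section, its spots are not replicates, and no test was run.

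Bone is built by osteoblasts, which secrete type I collagen and small mineral-binding proteins, and some of which become buried in the matrix as osteocytes. Osteoclasts, which are of myeloid origin, dissolve the mineral and cleave the collagen. A fracture callus holds all of these cells beside marrow, vessels and periosteum, and here it was bordered by the muscles of the thigh. A Visium spot covers a small area that can hold several cells of different types, so each level belongs to a mixture.

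The bone spots carried 409020 UMIs and the rest 4499787, with medians of 2621 UMIs per spot (range 509 to 12289) and 2641 (range 507 to 22967). The bone region thus held 8.33% of the UMIs, and its median of 1582 genes per spot compared with 1403 in the rest. The region measured 2500 µm along the femur and 1472 µm across, and formed 2 bands along the femur joined by a narrow bridge of spots. For a view of the spread inside it, the region was divided into 4 blocks of 35 to 38 spots at the median positions, named here upper left, lower left, upper right and lower right as in the map. Levels are UMIs per 1000000 UMIs of a group (CPM), and each log2 ratio of bone region over rest carries a 95% interval in parentheses from the exact conditional binomial distribution, which holds counting error alone.

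**Figure D1:**
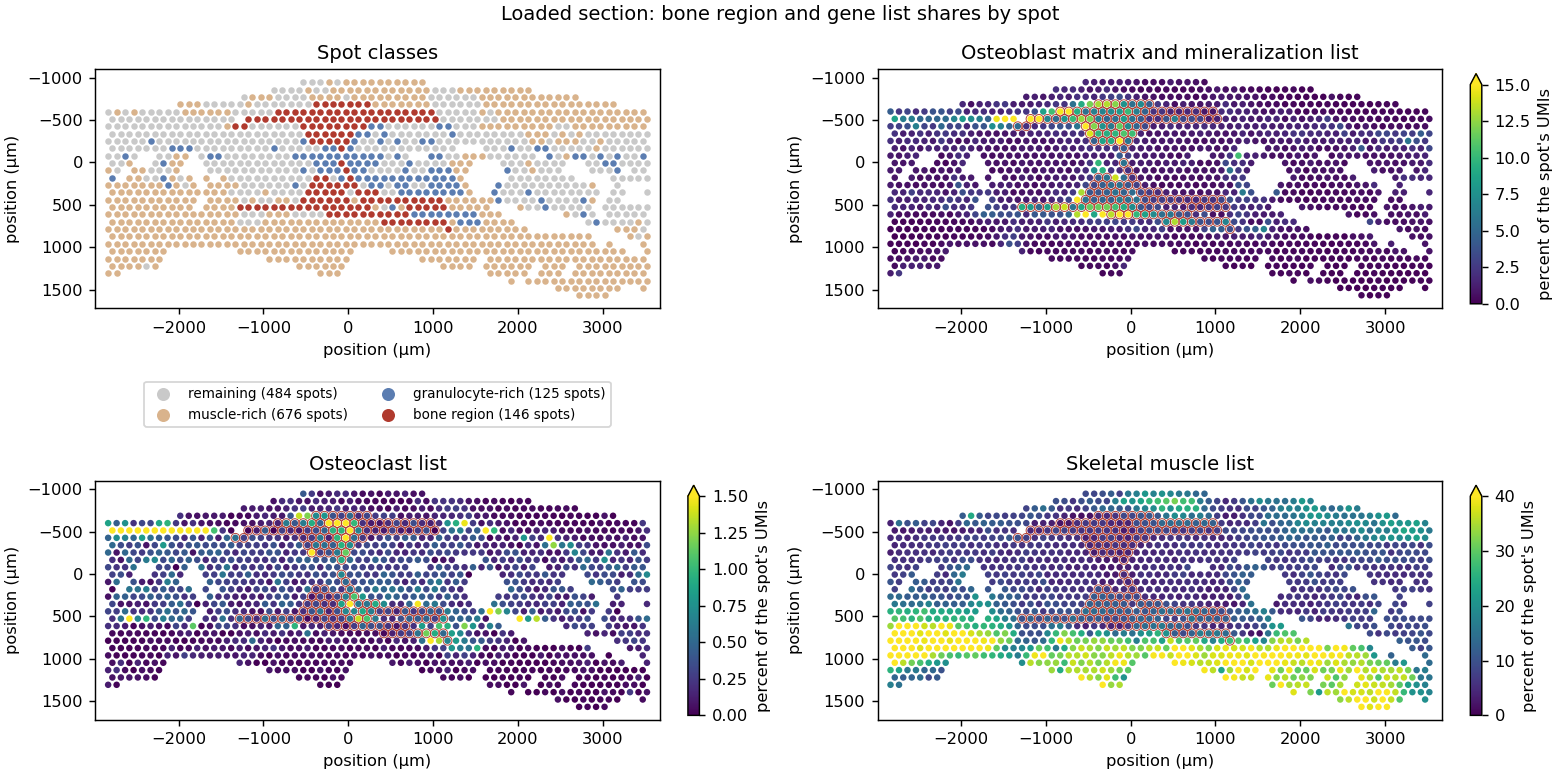
Maps of the Loaded section (positions in µm, 1 point per spot) with the classes of spots and with the percent of each spot's UMIs taken by 3 gene lists. Red rings outline the bone spots. The osteoblast list took a median of 5.49% of a bone spot and 0.867% of another spot, and spots with the highest skeletal muscle shares lay below the bone region and outside it.

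In all, 7226 genes had at least 100 UMIs over both groups. Of these, 412 (5.7%) were at least 2-fold higher in the bone region and 312 (4.32%) at least 2-fold lower, and 29 and 19 were past 4-fold. All 4 blocks lay above the level of the rest for 330 of the 412 and below it for 286 of the 312. The blocks are parts of the same sum that made the call, and a block without a UMI of a gene counts as below. The counting interval excluded equal levels for all 412 higher genes and for 279 of the 312 lower ones. For the higher genes this follows from the limits on UMIs and fold and from the group sizes. Lower genes have few UMIs in the bone region, so these counts add no support to either set of calls. The median gene stood at a log2 ratio of 0.20, and 63.5% of the genes were above 0. With the 20 most abundant genes left out of the totals, the median gene stood at 0.11. Measured against the median gene in place of the total, 213 genes were at least 2-fold higher and 539 lower, so that higher genes made up 28.3% of the calls instead of 56.9%. Just inside the limit stood *Slc39a7* with a log2 ratio of 1.00, and just outside it *Rcn1*, also 1.00 after rounding, with 33 and 182 UMIs.

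**Figure D2:**
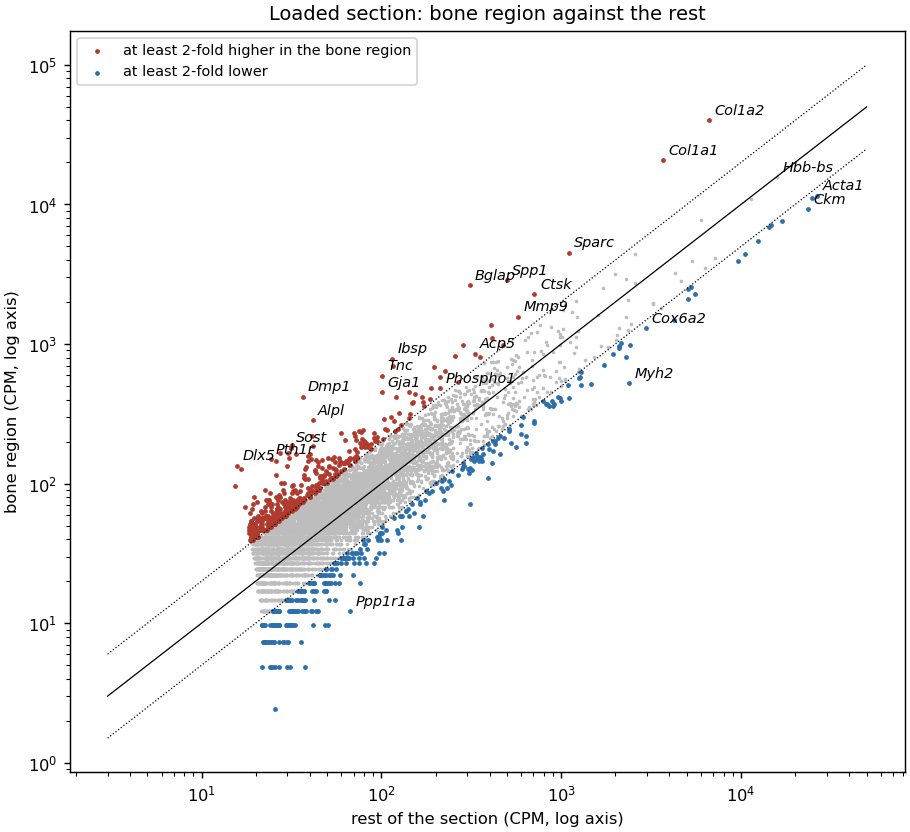
Level of each of the tested genes in the bone region against the rest of the Loaded section, both in CPM on log axes. The solid line marks equal levels and the dotted lines 2-fold differences. *Col1a2* was the most abundant gene of the bone region at 40064 CPM, and *Acta1* of the rest at 26432.

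The genes of bone formation and of mineral stood furthest from the rest. Of the 12 genes on the osteoblast matrix and mineralization list, 11 were in the files and 8 had enough UMIs. All 8 were at least 2-fold higher, with a median log2 ratio of 2.56, beside 5.7% and 0.20 over all tested genes. Together the list took 7.25% of the UMIs of the bone region and 1.26% of the rest. Among single spots, its share ran from 0.746% to 27.4% in the bone region and from 0% to 28.2% in the rest, so the groups overlapped. The median of the rest was exceeded by 144 of the bone spots.

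Promoters of 3 of the leading genes of mineral are shown because all of them hold the core letters bound by RUNX factors, ACCACA, written in capitals. They run from 250 bases before to 50 bases after the annotated start, come from RefSeq on GRCm38.p6, and read 5′ to 3′ on the strand of the gene. The promoter of *Bglap* is chr3:88384417-88384716 (minus strand), that of *Dmp1* nearest its gene body chr5:104202367-104202666 (plus strand), and the upstream one of *Spp1* chr5:104434861-104435160 (plus strand).
Bglap: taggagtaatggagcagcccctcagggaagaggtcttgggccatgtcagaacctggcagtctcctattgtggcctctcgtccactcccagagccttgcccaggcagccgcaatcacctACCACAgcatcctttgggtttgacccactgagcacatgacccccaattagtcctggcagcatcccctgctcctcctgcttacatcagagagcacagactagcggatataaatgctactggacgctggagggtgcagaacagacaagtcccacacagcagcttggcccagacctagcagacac
Dmp1: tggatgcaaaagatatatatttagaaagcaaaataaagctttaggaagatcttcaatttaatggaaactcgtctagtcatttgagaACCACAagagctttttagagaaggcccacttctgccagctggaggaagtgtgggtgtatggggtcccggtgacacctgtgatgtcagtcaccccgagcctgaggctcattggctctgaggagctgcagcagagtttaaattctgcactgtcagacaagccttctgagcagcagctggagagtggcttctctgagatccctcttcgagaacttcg
Spp1: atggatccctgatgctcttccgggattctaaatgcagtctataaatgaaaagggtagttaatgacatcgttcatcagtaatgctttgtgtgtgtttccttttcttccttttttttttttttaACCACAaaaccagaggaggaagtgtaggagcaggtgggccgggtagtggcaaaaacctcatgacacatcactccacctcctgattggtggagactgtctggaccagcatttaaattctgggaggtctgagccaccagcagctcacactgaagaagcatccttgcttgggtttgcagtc
The letters began 132 bases before the start in *Bglap*, 164 in *Dmp1* and 128 in *Spp1*. A promoter was found for 15 of 19 bone and muscle genes looked up. Counting a gene by any of its promoters, 4 of the 15 held ACCACA or its reverse complement TGTGGT, the fourth being *Mepe*. The other listed promoters of *Dmp1* and *Spp1* held neither, nor did those of *Ibsp* and *Alpl*. The shares below count promoters and not genes. These letters were no more frequent among the genes that were higher in the bone region. They occurred in 11.0% of 400 promoters of genes at least 2-fold higher, 13.3% of 316 promoters of genes at least 2-fold lower, 12.2% of the promoters of all tested genes and 16.8% of all 32851 promoters in the table.

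*Bglap*, which encodes osteocalcin, a protein of mineralized matrix made by mature osteoblasts, had 1078 UMIs in the bone region and 1393 in the rest. Its level was 3153 CPM in the upper left block, 2657 in the lower left, 1607 in the upper right and 3225 in the lower right, against 310 in the rest. Every block was above the rest, and the log2 ratio was 3.09 (2.97 to 3.21), an 8.51-fold difference. With every spot thinned to 1000 UMIs, 83.2% of the bone spots and 22.4% of the others held a *Bglap* UMI, and unthinned shares were 95.9% and 41.9%.

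*Ibsp*, which encodes bone sialoprotein, was at 1430, 654, 404 and 543 CPM in the same order of blocks and at 115 in the rest, a log2 ratio of 2.77 (2.57 to 2.98). *Alpl*, the phosphatase that frees phosphate for mineral, was at 379, 272, 129 and 366 CPM against 41.6, with a log2 ratio of 2.77 (2.42 to 3.11). *Spp1*, which encodes osteopontin and is also made by osteoclasts and macrophages, was at 4316, 2184, 3213 and 1252 CPM against 497, a log2 ratio of 2.53 (2.43 to 2.63). The blocks of each of these genes differed by more than 2-fold among themselves and all lay above the rest.

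The 2 chains of type I collagen, *Col1a1* and *Col1a2*, gave the most UMIs. *Col1a2* had 16387 UMIs in the bone region and a log2 ratio of 2.59 (2.57 to 2.62), and *Col1a1* had 8503 and a log2 ratio of 2.50 (2.46 to 2.54). *Col1a1* was highest on the left, with 29721 and 25692 CPM in the upper and lower blocks, and lower on the right, with 10888 and 15523. *Sparc*, a collagen-binding protein of bone, had a log2 ratio of 2.04 (1.96 to 2.12). *Phospho1*, which frees phosphate inside matrix vesicles, had the smallest ratio of the 8 tested members at 1.19 (0.96 to 1.41), and was just short of 2-fold when set against the median gene. Of the 3 measured members with fewer than 100 UMIs, *Smpd3* had 21 UMIs in the bone region and 28 in the rest, *Ifitm5* 16 and 40, and *Omd* 5 and 32, the last with a log2 ratio of 0.78 (-0.94 to 2.15).

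Transcription factors of the osteoblast lineage were also higher, at far lower levels. Of 8 on the list, 5 had enough UMIs, 4 were at least 2-fold higher beside 5.7% of all tested genes, and the median log2 ratio was 2.46. *Dlx5* stood at 134 CPM in the bone region and 15.8 in the rest, a log2 ratio of 3.09 (2.56 to 3.62). *Creb3l1*, which drives genes of collagen secretion, had a log2 ratio of 2.46 (2.02 to 2.89, or 1.55 without the upper left block), and *Runx2*, which is needed for the osteoblast fate, 1.61 (1.26 to 1.94). *Atf4*, a stress-responsive factor present in many cell types, was at 489 and 398 CPM, a log2 ratio of 0.30. *Sp7*, which acts after *Runx2* in the lineage, had 43 UMIs in the bone region and 56 in the rest, below the limit for a call, and a log2 ratio of 3.08 (2.47 to 3.68).

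**Figure D3:**
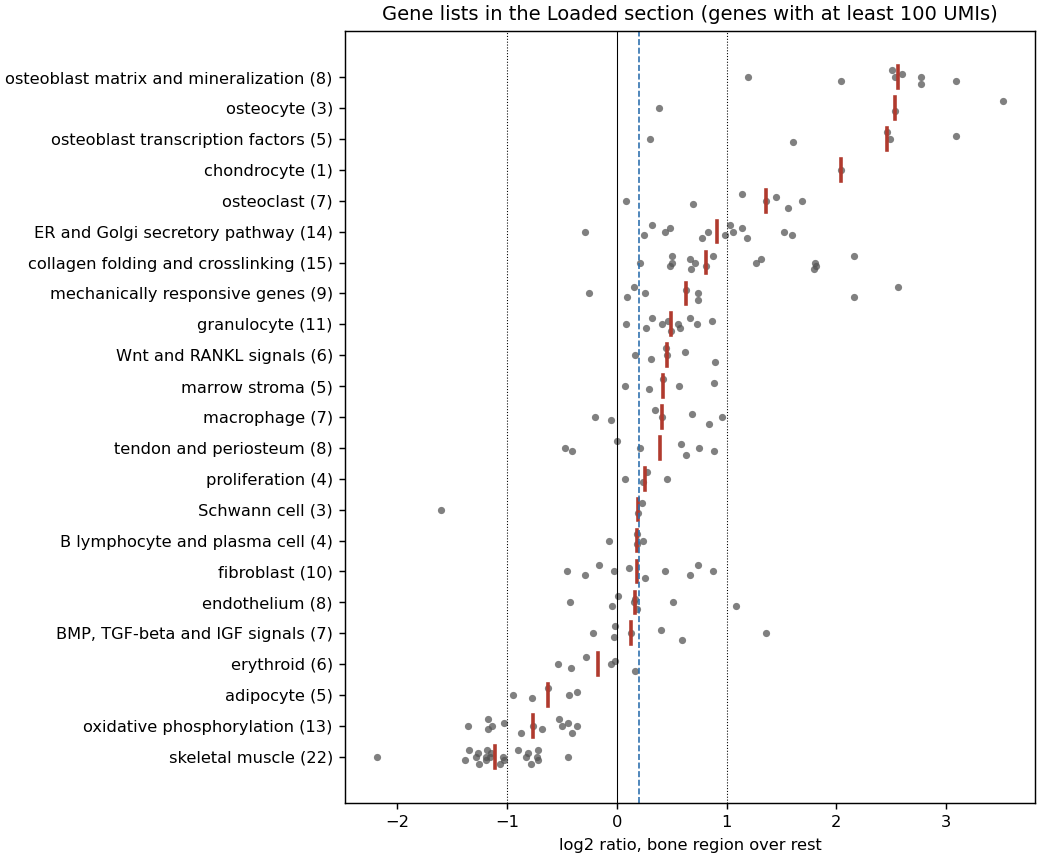
Log2 ratio of bone region over rest for each tested member of 23 gene lists, with the number of tested members in parentheses. Red bars mark list medians, the dashed line the median of all tested genes at 0.20, and dotted lines 2-fold differences. The osteoblast and osteocyte lists had medians of 2.46 to 2.56, and skeletal muscle stood lowest at -1.11.

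Several osteocyte genes had high ratios but few UMIs. *Dmp1*, a matrix protein of osteocytes, led the 12 highest genes with 171 UMIs in the bone region and 164 in the rest. It was at 586, 272, 422 and 354 CPM in the 4 blocks and 36.4 in the rest, a log2 ratio of 3.52 (3.20 to 3.84). *Mepe*, a further matrix protein of osteocytes, had 46 and 34 UMIs and a log2 ratio of 3.90 (3.22 to 4.58), and *Phex*, an endopeptidase that restrains loss of phosphate, had 35 and 39 UMIs and 3.30 (2.60 to 4.00). *Irx5* had 39 and 57 UMIs and *Ptprz1* 15 and 17. Of the 9 genes on the list, only *Dmp1*, *Sost* and *Pdpn* had 100 UMIs. At least 2-fold higher were 2 of these 3, beside 5.7% of all tested genes, and the list median of 2.53 is the ratio of *Sost*. *Pdpn*, also made by fibroblasts and lymphatic endothelium, had a log2 ratio of 0.39 (-0.38 to 1.08). *Fgf23* had 1 UMI in the bone region and 3 in the rest, and *Dkk1* 1 and 4.

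*Sost* encodes sclerostin, the inhibitor of Wnt signaling secreted by mature osteocytes, and its pattern inside the region differed from that of the other bone genes. It was at 25.8 CPM in the upper left block and 50.3 in the lower left, and at 257 and 449 in the upper and lower right blocks. The rest stood at 31.3, inside the range of the blocks, so the log2 ratio of 2.53 (2.10 to 2.95) rested on the right side of the region. Without the lower right block the log2 ratio was 1.82, and with other single blocks left out it reached 2.95. With bone spots of a muscle share below 5% alone (26 spots) it was 0.98, short of 2-fold. The osteoblast list took 10.5% and 8.5% of the UMIs in the left blocks and 4.21% and 5.29% in the right ones. *Col1a1* and *Col1a2* gave the most UMIs of this list, and its members differed. *Ibsp*, *Alpl* and *Spp1* were highest in the upper left block. *Bglap* was highest in the lower right block, at 3225 CPM against 3153 in the upper left. *Dmp1* was above the rest in all blocks.

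*Dmp1*, *Ibsp*, *Mepe* and *Spp1* lie in this order on chromosome 5, all on the plus strand (GENCODE M21, GRCm38). *Dmp1* spans 104202613 to 104214102, *Ibsp* 104299171 to 104311469, *Mepe* 104325329 to 104338611 and *Spp1* 104435118 to 104441050. They belong to the small integrin-binding ligand proteins, a family of acidic phosphoproteins of bone and tooth. Their levels in the bone region were above those in the rest with log2 ratios of 3.52, 2.77, 3.90 and 2.53.

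Osteoclast genes were higher by a smaller margin. Of 12 listed, 7 had enough UMIs, 5 were at least 2-fold higher beside 5.7% of all tested genes, and the median log2 ratio was 1.36. *Ctsk*, the protease that cleaves collagen in the resorption pit, was at 2834, 1439, 2782 and 1890 CPM in the 4 blocks and 710 in the rest, a log2 ratio of 1.69 (1.58 to 1.79). *Mmp9*, a gelatinase of osteoclasts and neutrophils, had a log2 ratio of 1.45 (1.33 to 1.58), and *Acp5*, the tartrate-resistant acid phosphatase, 1.36 (1.19 to 1.53). *Atp6v0d2*, a subunit of the proton pump, had 33 and 123 UMIs and a log2 ratio of 1.56 (0.96 to 2.13). *Itgb3*, the integrin chain with which osteoclasts attach, reached 1.14 (0.51 to 1.72) and was short of 2-fold when set against the median gene. On that scale 4 of the 7 remained past 2-fold, beside 213 higher among all 7226 tested genes. *Car2*, a carbonic anhydrase that red cells also hold, was at 401 and 379 CPM, and *Nfatc1*, the master factor of the lineage, had 19 and 129 UMIs and a log2 ratio of 0.70 (-0.08 to 1.40).

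The shares of the osteoclast and osteoblast lists were nearly uncorrelated from spot to spot. The osteoclast share rested on few UMIs per spot, and counting error alone draws such a correlation toward 0. *Col1a1* and *Col1a2* gave the most UMIs of the osteoblast list. Over all bone spots, which are neighbors in 1 section and share its composition, Pearson's r between the 2 shares was -0.06 and Spearman's rho 0.03. The osteoclast share was 0.638% and 0.659% of the UMIs in the upper blocks and 0.336% and 0.487% in the lower ones. Its median per bone spot was 0.343% and its highest value 2.7%, below the highest value of 6.26% in the rest.

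Bone genes also differed between the core and the border of the region. The 32 bone spots whose neighbors under tissue were all bone (inner) were compared with the 114 others (edge). *Ctsk* was at 3902 CPM in the inner and 1834 in the edge spots, *Mmp9* at 2337 and 1361, *Acp5* at 1409 and 695, *Spp1* at 4584 and 2391, and *Dmp1* at 626 and 360. *Bglap* was lower in the inner spots, at 2146 against 2772, *Col1a1* was at 18793 and 21347, and *Sost* was at 123 and 197.

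**Figure D4:**
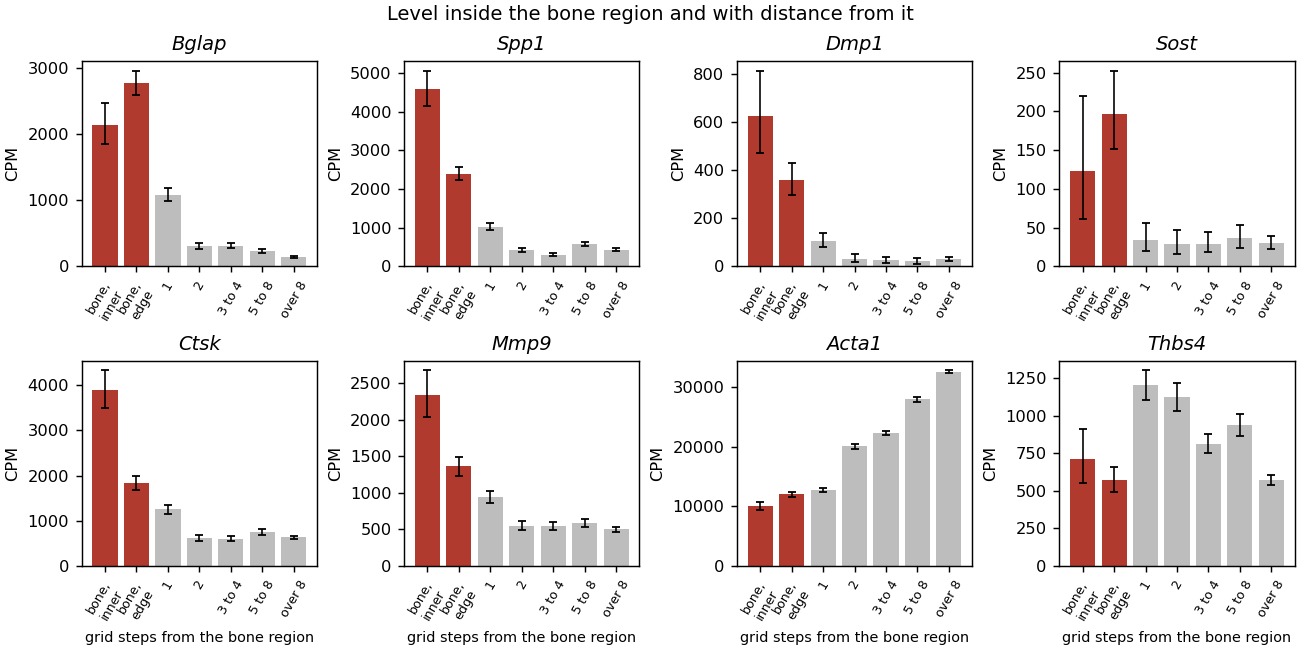
Level of 8 genes (CPM) in inner and edge bone spots (red) and in other spots by their distance from the bone region in grid steps of 100 µm (gray). Error bars are exact Poisson 95% intervals for the counts. *Bglap* stood at 1086 in the ring of adjacent spots and 146.5 beyond 8 steps, and *Acta1* at 12719 and 32561.

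Outside the region, levels of most bone genes were lower from the second grid step on than in the adjacent spots. *Bglap* was at 1086 CPM in the 135 adjacent spots, 303 at 2 steps, 313 at 3 to 4 steps, 231 at 5 to 8 steps and 146.5 further away. *Dmp1* was at 106, 32.4, 25.5, 21.2 and 30.1 in the same order. *Ctsk* was at 1253 in the adjacent spots and between 599 and 752 in the other rings, and *Sost* stayed between 28.6 and 36.8 in all of them. Spots with a high osteoblast list share were also found in the rest, where 38 reached at least 5%, compared with 81 of the bone spots. Of the 38, 19 touched the bone region and 6 lay more than 8 steps away. *Col1a2* and *Col1a1* weighed most in this share, with 29875 and 16513 UMIs in the rest, so the share alone does not identify bone. With these 38 spots left out, a choice made after the values were seen and with a list that holds the gene, the log2 ratio of *Bglap* was 3.67 in place of 3.09.

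Some of the genes that process and export collagen were higher as well. Of the 15 genes for collagen folding and crosslinking, all were tested, 6 were at least 2-fold higher beside 5.7% of all tested genes, 9 were not past 2-fold in either direction, and the median log2 ratio was 0.82. *Lox*, which crosslinks collagen, had a log2 ratio of 2.16, *Serpinh1*, the collagen chaperone of the endoplasmic reticulum, 1.81 (1.61 to 2.0), and *Bmp1*, the procollagen C-proteinase, 1.80 (1.54 to 2.05). *P4hb*, a shared subunit of prolyl hydroxylases that works in most secretory cells, had 0.21 (-0.19 to 0.58). Of the 14 tested genes of the secretory pathway, 6 were at least 2-fold higher beside 5.7% of all tested genes, 8 were not past 2-fold, and the median was 0.91. *Sec61b*, part of the translocation channel, had a log2 ratio of 1.59, *Kdelr2*, which returns proteins from the Golgi, 1.52 (1.32 to 1.72), and *Mia3*, which helps to load collagen into carriers, -0.29. Against the median gene, 2 of the 14 remained past 2-fold, beside 213 higher among all 7226 tested genes on that scale.

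Several of the 12 highest genes belonged to no bone list. *Pth1r*, the receptor for parathyroid hormone on osteoblasts and osteocytes, had 61 and 109 UMIs and a log2 ratio of 2.62 (2.15 to 3.09), with blocks between 110 and 191 CPM against 24.2. *Col11a2*, a chain of type XI collagen, had 2.57 (2.36 to 2.79), *Col13a1*, a transmembrane collagen, 2.64 (2.03 to 3.22), and *Timp1*, an inhibitor of matrix metalloproteinases, 2.60 (2.16 to 3.04). *Timp1* was uneven, at 319 and 211 CPM in the left blocks and 55.1 and 47.3 in the right ones, and its log2 ratio was 1.95 without the upper left block. *Cgref1* showed the same side, at 233 and 161 against 55.1 and 35.4, with a log2 ratio of 2.93 (2.39 to 3.46).

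Of 9 tested genes known to respond to mechanical stimuli, 2 were at least 2-fold higher beside 5.7% of all tested genes, and the median log2 ratio was 0.63. They were *Tnc*, which encodes the matrix protein tenascin C, at 2.56 (2.33 to 2.79), and *Gja1*, which encodes the gap junction protein that links osteocytes, at 2.16 (1.90 to 2.41). *Tnc* was at 836, 392.5, 707 and 354 CPM in the blocks and 100.4 in the rest. *Ccn2*, a matricellular target of the YAP pathway, was at 100.2 and 119 CPM, a log2 ratio of -0.25 (-0.75 to 0.21), and *Fos* and *Egr1*, both immediate early genes, had 0.09 and 0.16. The paper states that the mice were killed hours after the final loading session, so an earlier response of *Fos* and *Egr1* was not measured. *Il11*, a cytokine of the osteoblast lineage, had 15 UMIs in the bone region, 12 of them in the upper left block, and 10 in the rest, below the limit for a call, and a log2 ratio of 4.04 (2.79 to 5.36).

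Signals between bone cells were sparse. Of the 15 genes on the Wnt and RANKL list, 6 were tested, all of them Wnt ligands, antagonists or co-receptors. None of these reached 2-fold, beside 5.7% of all tested genes higher and 4.32% lower, and their median log2 ratio was 0.45. *Sfrp4*, a secreted Wnt antagonist, was at 269 and 175 CPM, a log2 ratio of 0.62 (0.32 to 0.91). Members below the limit for a call had higher ratios with wide intervals. *Wnt7b* had 11 UMIs in the bone region, all in the 2 left blocks, and 16 in the rest, a log2 ratio of 2.92 (1.67 to 4.12). *Tnfsf11*, which encodes RANKL, had 11 and 35 UMIs and 1.79 (0.66 to 2.80), and *Tnfrsf11b*, which encodes its decoy receptor, 10 and 17 and 2.69 (1.40 to 3.90). Of 7 tested genes of BMP, TGF-β and IGF signaling, 1 was at least 2-fold higher beside 5.7% of all tested genes, and the list median was 0.13. It was *Tgfb1*, a growth factor stored in bone matrix, with a log2 ratio of 1.36 (1.07 to 1.63). This ratio stayed between 1.22 and 1.47 with single blocks left out. Over all other scalings, filters and parts of the section tried, it ranged from 0.55 to 2.14.

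Cartilage genes were near the limit of detection. *Col2a1*, the collagen of cartilage, had 33 UMIs in the bone region and 88 in the rest, a log2 ratio of 2.04 (1.42 to 2.64), and was at 8.61, 80.5, 82.6 and 177 CPM in the 4 blocks against 19.6. The upper left block was below the rest. With other scalings, filters and parts of the section, the log2 ratio of *Col2a1* went as low as 0.21. *Acan* had 7 and 19 UMIs, *Col9a1* 5 and 11 and *Sox9* 6 and 42.

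Among the 23 lists, skeletal muscle, the longest of them, had the most genes at least 2-fold lower. All 22 on the list were tested, 14 were at least 2-fold lower beside 4.32% of all tested genes, none was higher and the median log2 ratio was -1.11. They took 8.64% of the UMIs of the bone region and 18.7% of the rest. *Acta1*, skeletal muscle actin, was at 8132, 11442, 11779 and 16150 CPM in the blocks and 26432 in the rest, a log2 ratio of -1.19 (-1.23 to -1.15). *Ckm*, muscle creatine kinase, had -1.35 (-1.39 to -1.30). *Myh2*, the myosin of oxidative fast fibers, had the lowest ratio of the list at -2.19 (-2.39 to -1.99). Muscle transcripts were nevertheless present in all bone spots, where the list took between 2.19% and 27.5% of the UMIs, against a lowest value of 1.29% in the rest. Genes of oxidative phosphorylation stood on the same side, with 5 of 13 at least 2-fold lower and a median of -0.76. *Cox6a2*, a muscle form of a cytochrome oxidase subunit, had -1.18 (-1.31 to -1.05), and *Atp5b*, the catalytic chain of ATP synthase, -1.14 (-1.33 to -0.95).

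The 12 lowest genes with all blocks below the rest had at most 5 UMIs each in the bone region, so their ratios have wide intervals. *Ppp1r1a* had 5 UMIs against 301, a log2 ratio of -2.45 (-4.09 to -1.21), *Xirp1*, a protein of muscle cell junctions, 4 against 226, *Phyh*, a peroxisomal enzyme, 2 against 170, and *Acsl1*, an acyl-CoA synthetase, 2 against 139.

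The rest was not uniform, and the ratios depended on which of its tissues stood opposite. By the share of muscle and granulocyte genes, 676 of its spots were muscle-rich (at least 10% muscle), 125 granulocyte-rich (at least 1% granulocyte genes and less muscle) and 484 remained. The log2 ratio of *Bglap* was 4.15 against muscle-rich, 2.10 against granulocyte-rich and 2.20 against the remaining spots. For *Dmp1* these values were 4.19, 2.58 and 2.88, and for *Sost* 2.65, 2.06 and 2.44. *Col1a1* had 3.28, 2.40 and 1.60. Several genes were past 2-fold against muscle-rich spots and not against the remaining ones. *Ctsk* had 2.54, 1.96 and 0.68, *Mmp9* 2.57, 0.38 and 0.55, and *Acp5* 2.48, 1.79 and 0.21 (0.03 to 0.38). Against both of the classes poor in muscle, *Runx2* and *Phospho1* were short of 2-fold, with 2.71, 0.72 and 0.66 for *Runx2* and 1.43, 0.46 and 0.98 for *Phospho1*. *Ckm* was lower than in muscle-rich spots by a log2 ratio of -1.86, and higher than in the other classes, at 0.85 and 0.44. The classes were cut with a muscle list that holds *Ckm*, and the bone spots were not cut this way. These signs of *Ckm* therefore follow in part from the choice of spots.

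**Figure D5:**
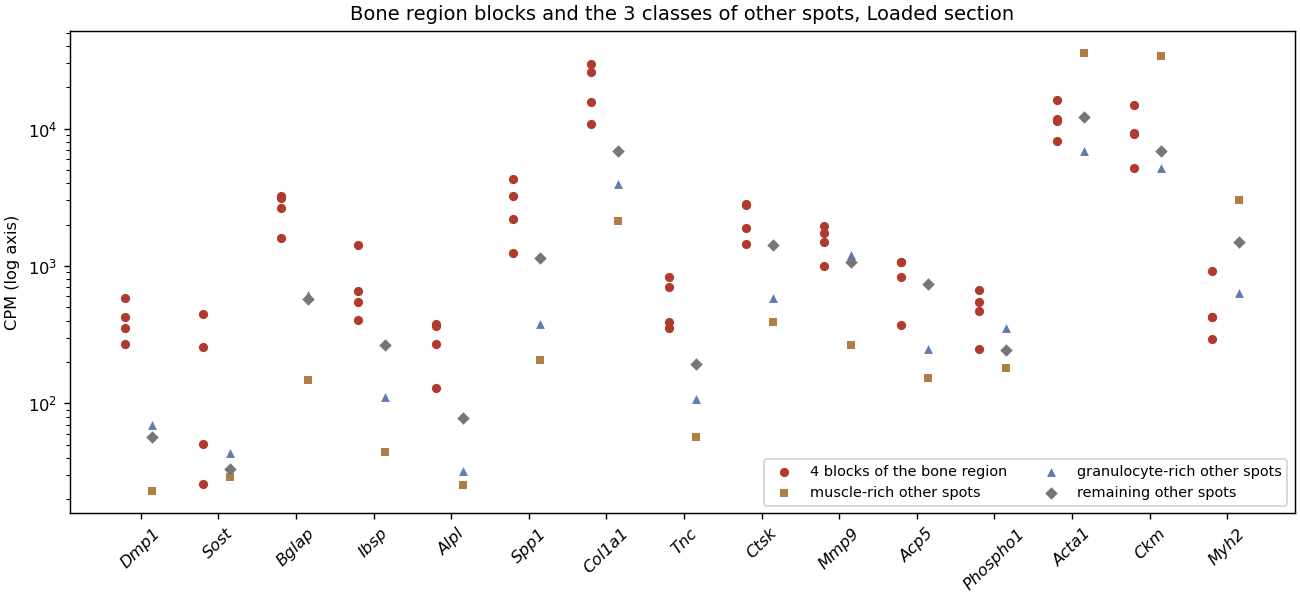
Level of 15 genes (CPM, log axis) in the 4 blocks of the bone region and in 3 classes of other spots of the Loaded section. For *Dmp1*, *Bglap* and *Col1a1* all blocks lay above all classes, for *Acp5* 1 block lay below the remaining spots, and for *Sost* the 2 left blocks, at 25.8 and 50.3, were close to the classes, at 28.9 to 43.6.

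Blood, marrow and connective tissue lists showed few differences past 2-fold between the bone region and the rest taken as a whole. With levels scaled to the total, no tested member of the erythroid (6 tested), granulocyte (11) or macrophage (7) list was past 2-fold in either direction. The same held for the tendon and periosteum (8), fibroblast (10), proliferation (4) and marrow stroma (5) lists. It also held for the adipocyte (5) and B lymphocyte and plasma cell (4) lists. Some members below the limit for a call were past 2-fold, such as *Lepr* at 1.22 (0.31 to 2.03) and *Retn* at -2.06 (-7.40 to 0.49). Of all tested genes, 5.7% were at least 2-fold higher and 4.32% lower, so a list this short with none past 2-fold says little about its members. Against the median gene, 1 of the 5 adipocyte genes was at least 2-fold lower, beside 539 of all 7226 tested genes. With scran size factors 2 of the 5 were, beside 583 of 7226. The other lists named here still had none. *Hbb-bs*, a β-globin, was at 15745 and 15905 CPM. These near-equal levels average over unlike tissues of the rest. The erythroid list took 3.05% of the UMIs of the bone region. It took 0.744% of muscle-rich, 10.1% of granulocyte-rich and 6.77% of the remaining spots. Under the alternatives run, the log2 ratio of *Hbb-bs* ranged from -1.70 to 2.12. The granulocyte list took 0.456% of the UMIs of the bone region and 0.307% of the rest, with a median log2 ratio of 0.50, and the macrophage list had a median of 0.42. Granulocyte and erythroid shares moved together over the bone spots (Pearson's r 0.66, Spearman's rho 0.73), and the osteoblast share moved against the erythroid share (-0.52 and -0.57). The spots are neighbors in 1 section. All shares divide the same total of a spot, so a high share of 1 list by itself lowers the others. *Thbs4*, a matrix protein of tendon and muscle attachments, was at 604 CPM in the bone region and 1202 in the adjacent spots. Of the endothelial list, *Kdr*, a receptor for vascular endothelial growth factor, had a log2 ratio of 1.08, short of 2-fold against the median gene, and *Cdh5*, the cadherin of endothelial junctions, -0.42 (-1.08 to 0.17). *Mbp* and *Pmp22*, both also made by Schwann cells, had log2 ratios of 0.23 and 0.19.

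The same contrast in the Control section, with 6.9% of the spots in the bone region and 1767 others, is given side by side, since 1 section per group allows no test of the difference. The median log2 ratio of the osteoblast matrix list was 1.52 there and 2.56 in the Loaded section, and that of the osteoclast list 1.32 and 1.36. *Bglap* had a log2 ratio of 0.38 in the Control section, *Col1a1* 2.07, *Dmp1* -0.01, *Sost* -0.45, *Ctsk* 1.73 and *Acp5* 1.72. The fibroblast list had a median of 1.67 there and 0.18 in the Loaded section, and the tendon and periosteum list 1.53 and 0.39. The rest was not alike in the 2 sections, so these ratios have unlike tissue opposite. The skeletal muscle list took 31.0% of the UMIs of the rest in the Control section and 18.7% in the Loaded section. The fibroblast list took 0.227% and 0.386% of the rest, and 0.717% and 0.513% of the bone region. The 2 sections share 534 of their barcodes, which name places on the slide grid and not cells.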

How the data were processed

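Spatial gene expression was measured with the Visium assay for formalin-fixed, paraffin-embedded tissue, in which pairs of probes bind each transcript. The deposited values are UMI counts per gene and spot for all spots under tissue, as SpaceRanger 2.0.0 wrote them per the file headers, with no normalization. The labels name the build mm10 and, without their role, R 4.3.1 and Seurat. Spots with fewer than 500 UMIs or 250 genes were left out (5 spots). UMIs were summed per group and divided by the group's total, log2 ratios were taken, and a gene needed 100 UMIs over both groups to be called past 2-fold. A sum of 0 was set to 3 UMIs, and no ratio is given where both sums were 3 or lower. With 1 section per group no model was fitted across samples. Intervals (95%) are exact and hold counting error alone. Molecules of 409020 (bone region) and 4499787 UMIs (rest) were counted, and the median spot had 2621 and 2641. Shares of spots with a UMI were thinned to 1000 UMIs, which left 131 bone spots and 1224 others.

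The bone region, the 23 lists and the rule for named genes were chosen with earlier results of these data known, and several list members were named by the study from these sections. The rule took the 12 highest and the 12 lowest genes with all 4 blocks on 1 side of the rest, all osteoblast, osteocyte and osteoclast genes, up to 4 of each other list by UMIs, and list genes named in the study. *Rcn1*, *Slc39a7*, *Lox*, *Sec61b*, *Mia3*, *Fos*, *Egr1*, *Kdr*, *Tnfsf11*, *Tnfrsf11b*, *Lepr* and *Retn* fall outside it and were chosen after their values were seen. Coordinates are from GENCODE M21, in which 19451 of 19465 identifiers were found. Python 3.11.15 with numpy 2.4.6, scipy 1.17.1, pandas 2.3.3 and matplotlib 3.10.9 was used, and R 4.3.3 with scran 1.30.0 and edgeR 4.0.16 for alternatives. The computation was tested on simulated counts. Alternatives were other scalings, filters, parts of the bone region and parts of the rest, and each block left out. Section images and micro-CT data were not used here. A few genes are not reported here.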

Additional observations from a re-analysis of the deposited data

Results flagged for a closer look

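Of the genes reported here with at least 100 UMIs in each section, 2 were past 2-fold in opposite directions in the 2 sections, a difference that was not tested because each group has 1 section. *Col2a1* had a log2 ratio of bone region over rest of 2.04 in the Loaded section and -2.99 in the Control section. Its UMIs in the bone region and the rest were 33 and 88 in the Loaded section, and 20 and 2397 in the Control section. The sections thus differed mainly in the UMIs of the rest. Under the alternatives run, the Loaded ratio of *Col2a1* ranged from 0.21 to 2.71. *Medag* had -2.61 and 1.23, with 2 UMIs in the Loaded bone region. *Col9a1*, below that limit in the Loaded section with 5 and 11 UMIs, had 2.32 (0.45 to 3.96) there and -3.48 (-4.93 to -2.36) in the Control section, with 6 and 1015 UMIs.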

How the results depend on the processing

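The number of genes past 2-fold depended on the scaling, on the limit for UMIs and on the spots compared, which changed both the tissue and the UMIs counted. In place of 412 higher and 312 lower genes, scran size factors gave 198 and 583, TMM factors 213 and 539, and the median gene as reference, added after the values were seen, also 213 and 539. These settings all tested 7226 genes, and the settings that follow changed that number. A limit of 50 UMIs per gene gave 756 and 474 of 9588 tested genes, and a limit of 200 UMIs 183 and 203 of 4364. Only bone spots with a muscle share below 5% gave 1024 and 879 of 6944, and only inner bone spots 960 and 805 of 6906. These spots held 113164 and 89448 UMIs in place of 409020. With fewer UMIs, more genes near the limit pass 2-fold by counting error, so the higher counts do not show a larger difference in tissue. The rest reduced to muscle-rich spots gave 927 and 505 of 5032 tested genes. Reduced to granulocyte-rich spots it gave 173 and 200 of 1310, and to the remaining spots 55 and 72 of 3582. With single blocks left out, there were 369 to 515 higher and 337 to 440 lower genes, of 7124 to 7164 tested. All other alternatives kept both counts within 1.5 times. The tissue opposite turned the direction of some genes past 2-fold. *Tnnc2*, *Myh4*, *Acta1* and *Ckm* are on the muscle list that cut these classes, and the bone spots were not cut this way. The turns of these genes therefore follow in part from the choice of spots. Against granulocyte-rich spots the log2 ratios were 0.33 for *Atp5b*, 0.90 for *Tnnc2*, 0.97 for *Myh4*, 0.59 for *Cox6a2*, 0.75 for *Acta1*, 0.85 for *Ckm* and 0.074 for *Ppp1r1a*. Against the remaining spots they were -0.011 for *Dcstamp*, which had 4 UMIs in the bone region and was below the limit for a call, 0.35 for *Tnnc2*, 1.22 for *Myh4* and 0.44 for *Ckm*. No other named gene past 2-fold turned under the alternatives run, and genes with 3 UMIs or fewer in a group were given no ratio where the spots differed. No paired analysis was possible because the result comes from no test and each group has 1 section. With 409020 UMIs in the bone region, a gene at the limit of 100 UMIs has about 8 expected there, so low genes are imprecise.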

Other observations

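Some signaling genes had too few UMIs for a call. *Bmp3*, a member of the bone morphogenetic protein family made by osteoblasts and osteocytes, had 19 UMIs in the bone region and 21 in the rest, a log2 ratio of 3.32 (2.34 to 4.28), and *Bambi*, a decoy receptor of that family, 19 and 54, a log2 ratio of 1.95 (1.12 to 2.73). *Wnt16* had 18 and 58 UMIs and a log2 ratio of 1.77 (0.92 to 2.56), *Wnt10b* 10 and 37 and 1.57 (0.40 to 2.61), and *Wif1*, a secreted inhibitor of Wnt proteins, 6 and 19 and 1.80 (0.18 to 3.18). Among genes of fat, *Cfd*, which encodes adipsin, had 74 and 1564 UMIs, a log2 ratio of -0.94 (-1.30 to -0.61), and was at 634 CPM at 2 grid steps from the bone region against 269 in the adjacent spots. These genes other than *Cfd* were chosen after their values were seen.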
